A study of Homo sapiens with 18 samples.

Results

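The 50 genes described here encode the machinery that copies DNA in S phase. They were taken by symbol from a table of read counts on 58815 genes, by a rule that names genes by function and uses no measured value. The genes were, however, chosen with earlier results of these data known. All 50 were found, and all 50 were among the 12160 genes that passed the filter on low counts and were tested. The cells were the sublines LM2, BrM3 and BoM, which spread readily to the lung, brain and bone in mice. They descend from the human breast cancer cell line MDA-MB-231 of the triple-negative type, an established line. Every subline carried a hairpin that doxycycline (DOX) switches on, either the control shCtrl or shWDR5 against WDR5, a scaffold protein of complexes that modify histones. All 6 groups, the shCtrl groups included, received DOX at 1 μg/mL for 3 days, and each group had 3 libraries harvested at different passages. The 3 lines are cell populations of 1 parental line and a single hairpin sequence against WDR5 was sequenced, so neither other tumors nor other hairpins are represented.

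Replication starts in G1, when the origin recognition complex, CDC6 and CDT1 load the ring-shaped MCM2-7 helicase onto DNA, a step that geminin (GMNN) blocks once S phase begins. CDC45 and the GINS complex then turn the loaded ring into a working helicase, and polymerases alpha, delta and epsilon copy the strands with the sliding clamp PCNA, its loader RFC and the single-strand binding protein RPA. Many of these genes are switched on together before S phase by the activators E2F1 and E2F2 and are switched off again by the repressor E2F8. In bulk RNA, a smaller share of cells in S phase and less of a transcript per cell cannot be told apart.

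Total counts ranged from 17485841 to 119667013 per library. WDR5 itself, given here as TMM-scaled CPM (counts scaled to the size of the library), read 113, 128 and 134 in LM2 shCtrl and 24.3, 24.4 and 20.5 in LM2 shWDR5. It read 85.5, 93.3 and 79.4 against 20.8, 21.3 and 23.5 in BrM3, and 87.5, 90.5 and 90.4 against 14.0, 21.1 and 22.1 in BoM. The shWDR5 groups thus held 18.5%, 25.5% and 21.2% of the shCtrl level (adjusted p of at most 4.2e-07 by edgeR's quasi-likelihood test). The markers of the cell type were mixed. In the shCtrl groups, mean VIM lay between 1570 and 1814 CPM, and 7 of 8 mesenchymal markers were above 50 CPM in each line, but SPARC was at 3.03 CPM in BoM against 372 CPM in LM2. Of 10 epithelial markers, KRT8 (290 to 390 CPM) and KRT18 (287 to 375 CPM) were abundant and KRT19 reached 127 CPM in BoM and KRT7 121 CPM in LM2, whereas CDH1, ESRP1, KRT5 and KRT14 were below 1 CPM. The receptor genes ESR1 and PGR were below 1 CPM and ERBB2 was at 58.0 to 75.6 CPM. Among 10 markers of other cell types, PTPRC, CD68, DCN and LUM had group means below 1 CPM, LUM was at 0 in the BrM3 shCtrl libraries, and COL1A1 was highest at 64.5 CPM in LM2. Of the 4 of these markers abundant enough to test, COL1A1, GFAP and PDGFRB were lower and PECAM1 was higher after knockdown averaged over the lines. The 10 markers summed to 52 to 106 CPM in LM2 shCtrl and 41.8 to 64.5 CPM in LM2 shWDR5, to 14.2 to 17.1 and 7.49 to 9.73 CPM in BrM3, and to 21.8 to 29.4 and 13.5 to 15.5 CPM in BoM, and their part in the values below was not tested.

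Of the 50 genes, 43 had a promoter in the RefSeq table (GRCh38.p14), and the 250 bases before the start were searched on both strands for TTTNNCGC, a core of E2F sites. It was found in 18 of the 43 promoters (41.9%), against 5.92% of all 35116 promoters in the table, so 25 of the 43 lacked it. The CCAAT box was in 58.1% against 32%, the E box CACGTG in 11.6% against 6.34%, and TTTGAA, a core of the CHR element of mitotic genes, in 4.65% against 13.3%. The promoters of 3 genes on which the results turn are shown: E2F2 and MCM6, which fell after knockdown, and E2F1, the activator nearest to E2F2 in role, which was not called. All 3 genes lie on the minus strand, each line reads 5′ to 3′ and ends at the base before the start, and capitals mark the matches to TTTNNCGC on either strand, some of which overlap.
E2F2, chr1:23531234-23531483: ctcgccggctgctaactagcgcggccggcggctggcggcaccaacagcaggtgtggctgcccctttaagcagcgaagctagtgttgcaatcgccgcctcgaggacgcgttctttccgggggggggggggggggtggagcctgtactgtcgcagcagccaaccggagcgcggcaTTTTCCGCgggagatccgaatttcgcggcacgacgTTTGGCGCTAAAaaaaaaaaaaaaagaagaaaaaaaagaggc
E2F1, chr20:33686386-33686635: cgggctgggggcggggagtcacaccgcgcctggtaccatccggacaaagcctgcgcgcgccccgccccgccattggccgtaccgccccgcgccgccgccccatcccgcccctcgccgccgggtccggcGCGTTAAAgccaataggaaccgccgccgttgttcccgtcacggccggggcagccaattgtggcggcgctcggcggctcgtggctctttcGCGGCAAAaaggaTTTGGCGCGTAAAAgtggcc
MCM6, chr2:135876444-135876693: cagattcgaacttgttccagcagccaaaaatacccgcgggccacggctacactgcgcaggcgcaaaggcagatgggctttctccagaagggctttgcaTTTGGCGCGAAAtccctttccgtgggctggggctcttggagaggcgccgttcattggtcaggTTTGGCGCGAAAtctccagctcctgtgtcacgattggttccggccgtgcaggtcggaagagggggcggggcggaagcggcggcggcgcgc
The E2F2 window held 3 matches, the E2F1 window 4 and the MCM6 window 4. The 8 genes of this set that changed after knockdown and had a promoter in the table held the motif in 2 cases (25%), namely MCM6 and E2F2. A match describes the letters only, and binding was not measured.

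To find what the 3 lines had in common, the log2 fold change of shWDR5 over shCtrl was averaged over LM2, BrM3 and BoM. Most of the replication machinery stayed near its control level, and 10 of the 50 genes changed. E2F2 fell most, to 41.8% of its control level, and E2F8, MCM6, RRM1, GINS3 and CHAF1B fell by smaller amounts. SLBP, MCM4, RPA1 and RFC2 rose, by 1.12-fold to 1.28-fold. The 10 genes called of 50 are a smaller share than the 35.5% called among all tested genes, and the 4 that rose and 6 that fell compare with 15.6% of all tested genes higher and 19.9% lower. The median log2 fold change of the 50 genes was 0.06, against 0.00 for all tested genes. The 40 genes not called lay between -0.23 and 0.16 on the log2 scale, and for 39 of them the 95% interval stayed within 0.5 of zero on that scale, which is a rise of 41.4%.

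**Figure D1:**
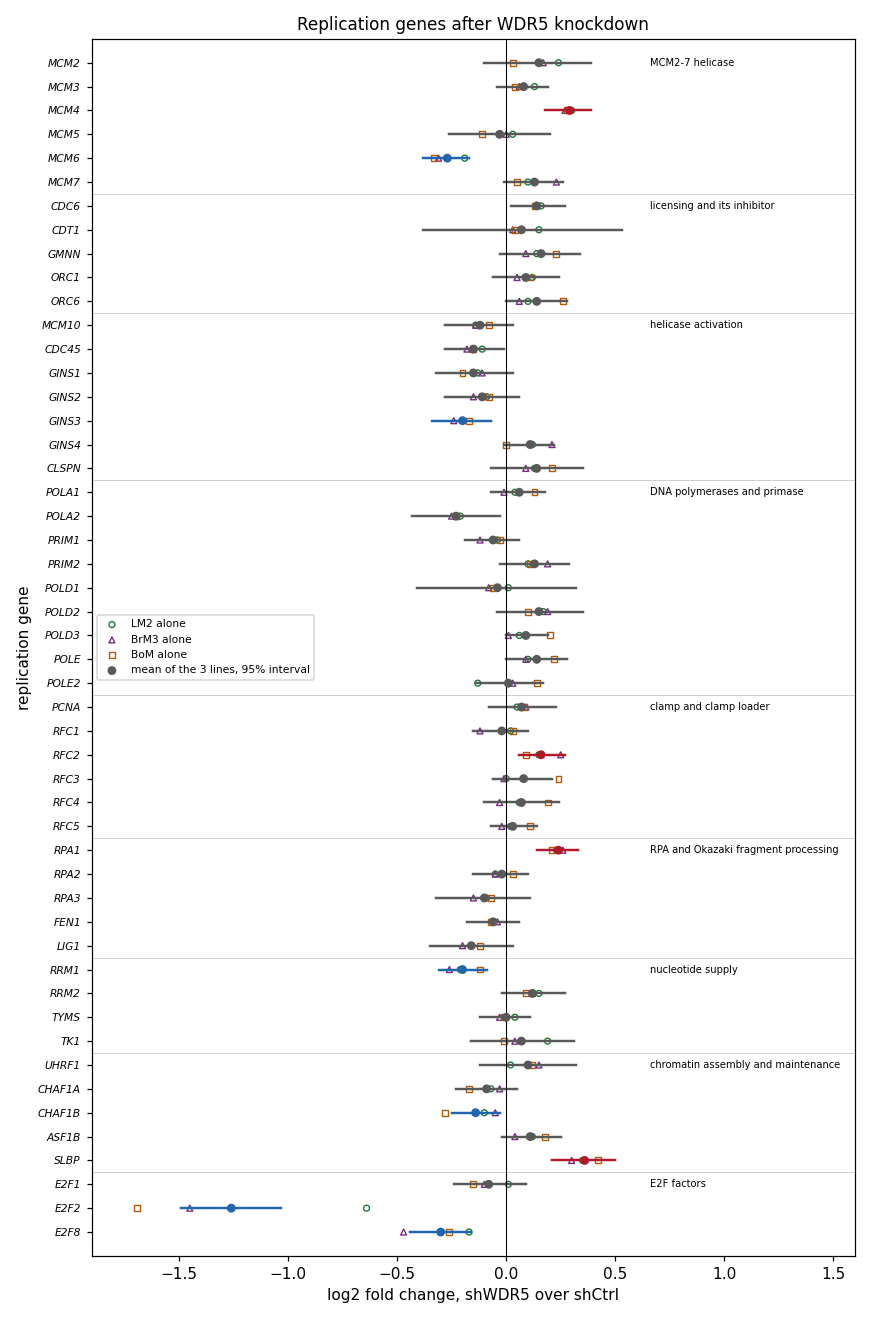
Log2 fold change of shWDR5 over shCtrl for the 50 replication genes, grouped by role. Filled points are the mean of the 3 lines with its 95% interval (red for genes that rose, blue for genes that fell, grey for genes not called), and open symbols are LM2, BrM3 and BoM alone. E2F2 lies at -1.26 and every other gene lies between -0.30 and 0.36.

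Among the E2F factors, E2F2 was the one member of the whole set with a mean change over 1 on the log2 scale. In LM2 it read 14.0, 15.7 and 13.5 CPM in shCtrl and 10.5, 8.63 and 8.61 CPM in shWDR5. In BrM3 it read 8.07, 8.38 and 8.74 CPM in shCtrl and 1.77, 3.72 and 3.43 CPM in shWDR5, and in BoM 18.6, 13.4 and 14.5 CPM against 5.02, 4.96 and 4.39 CPM. The shCtrl and shWDR5 libraries did not overlap in any of the 3 lines, and the BrM3 shWDR5 libraries were the lowest of all 18. E2F2 is a weakly expressed gene, with counts from 31 reads in the first BrM3 shWDR5 library to 1654 reads in the third LM2 shCtrl library. Its mean log2 fold change was -1.26 ± 0.11 (SE, n = 9 libraries per hairpin), with an adjusted p of 2.0e-07 by edgeR.

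E2F8, which represses E2F targets late in S phase, fell as well, with a mean log2 fold change of -0.30 ± 0.07 and an adjusted p of 0.0019 by edgeR. It read 59.9, 48.2 and 50.3 CPM in LM2 shCtrl and 52.6, 46.9 and 40.6 CPM in LM2 shWDR5, and these ranges overlapped. In BrM3 it read 40.9, 50.1 and 49.1 CPM against 34.4, 33.6 and 33.2 CPM, and in BoM 58.3, 47.4 and 54.2 CPM against 44.9, 43.8 and 44.9 CPM. In both lines every shWDR5 library lay below every shCtrl library. E2F1 was not called, at -0.08 ± 0.08 on the log2 scale, with a 95% interval from -0.24 to 0.09.

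The 6 subunits of the MCM2-7 helicase, which act as a single ring, did not move together. MCM4 rose and MCM6 fell, and MCM2, MCM3, MCM5 and MCM7 were not called, with mean log2 fold changes between -0.03 and 0.15. MCM4 read 326, 292 and 286 CPM in LM2 shCtrl and 388, 364 and 362 CPM in LM2 shWDR5. In BrM3 the values were 256, 268 and 277 CPM against 290, 338 and 340 CPM, and in BoM 315, 292 and 324 CPM against 374, 378 and 379 CPM. Within each line, all 3 shWDR5 libraries were above all 3 shCtrl libraries. The mean change was 0.29 ± 0.05 on the log2 scale, 1.22-fold (adjusted p = 1.6e-04 by edgeR).

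MCM6 went the other way in each line. It read 203, 180 and 180 CPM in LM2 shCtrl and 178, 162 and 154 CPM in LM2 shWDR5. The BrM3 values were 162, 167 and 176 CPM against 131, 137 and 138 CPM, and the BoM values were 139, 133 and 145 CPM against 102, 121 and 109 CPM. The shCtrl and shWDR5 libraries did not overlap in any line, although in LM2 the highest shWDR5 value lay just under the lowest shCtrl value. On average MCM6 changed by -0.27 ± 0.05 on the log2 scale, to 82.6% of the control level (adjusted p = 3.4e-04 by edgeR).

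The level of MCM4 relative to MCM6 within a library does not depend on how the libraries were scaled. This ratio was formed after the values of both genes had been seen and is given as a description with no test. Its log2 value was 0.69, 0.70 and 0.67 in LM2 shCtrl and 1.13, 1.16 and 1.23 in LM2 shWDR5. It was 0.66, 0.69 and 0.66 against 1.15, 1.30 and 1.30 in BrM3, and 1.19, 1.13 and 1.16 against 1.88, 1.64 and 1.79 in BoM. The shWDR5 mean exceeded the shCtrl mean by 0.48 (LM2), 0.58 (BrM3) and 0.61 (BoM) on the log2 scale, and the BoM shCtrl libraries already stood near the shWDR5 libraries of the other 2 lines. The ratio is of reads and was not divided by transcript length.

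**Figure D2:**
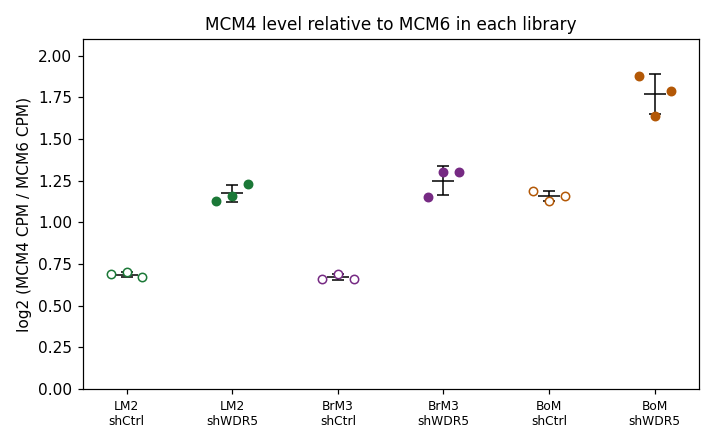
Log2 ratio of MCM4 CPM to MCM6 CPM in each of the 18 libraries (points), with the mean and SD of the 3 libraries of a group (bars). The shCtrl means are 0.69, 0.67 and 1.16 and the shWDR5 means are 1.17, 1.25 and 1.77 in LM2, BrM3 and BoM.

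None of the 4 licensing genes or their inhibitor GMNN was called. The licensing genes had mean log2 fold changes from 0.07 for CDT1 to 0.14 for CDC6 and ORC6, and GMNN was at 0.16 (edgeR, 2 of the 5 with an unadjusted p under 0.05, CDC6 and ORC6). The share of all tested genes at that unadjusted threshold was not counted. CDT1 was the least precise gene of the set, with an SE of 0.21, and ranged from 13.2 to 36.3 CPM within LM2 shCtrl alone. Among the 7 genes of helicase activation, GINS3, a subunit of the GINS complex, fell. GINS3 read 29.4, 25.1 and 26.6 CPM in LM2 shCtrl and 25.4, 22.0 and 23.1 CPM in LM2 shWDR5, so that 1 pair of libraries overlapped. It read 22.0, 23.9 and 24.6 against 18.8, 19.0 and 21.9 CPM in BrM3, with no overlap, and 29.2, 23.7 and 28.9 against 22.2, 25.6 and 24.7 CPM in BoM, with overlap. Averaged over the lines GINS3 changed by -0.20 ± 0.06 on the log2 scale (adjusted p = 0.017 by edgeR), and 10.9% of the bases in its exons also lie under exons of another gene. The other GINS subunits lay at -0.15 for GINS1, -0.11 for GINS2 and 0.11 for GINS4, and CDC45 and MCM10 lay at -0.15 and -0.12, none of them called.

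None of the 9 polymerase and primase genes was called. Their mean log2 fold changes ran from -0.23 for POLA2, the accessory subunit of polymerase alpha, to 0.15 for POLD2, a subunit of polymerase delta, with POLA2 and POLE at an unadjusted p under 0.05 by edgeR. Here too, the share of all tested genes at that unadjusted threshold was not counted. The catalytic subunits POLA1, POLD1 and POLE lay at 0.06, -0.04 and 0.14. POLA2 was the least abundant gene of the set at 0.434 CPM per kilobase of exon in the shCtrl libraries, and 21.3% of its exon bases lie under exons of other genes.

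In the clamp and clamp loader group, RFC2, a subunit of the loader, rose, and PCNA and the other 4 loader subunits were not called, at -0.02 to 0.08. RFC2 read 94.2, 89.3 and 96.0 CPM in LM2 shCtrl and 109, 100 and 102 CPM in LM2 shWDR5. It read 80.1, 80.8 and 81.6 against 92.7, 93.6 and 102 CPM in BrM3, and 117, 115 and 114 against 106, 130 and 133 CPM in BoM, where 1 shWDR5 library lay below the shCtrl libraries. RFC2 changed on average by 0.16 ± 0.05 on the log2 scale (adjusted p = 0.015 by edgeR).

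RPA1, the large subunit of the single-strand binding protein, rose while RPA2 and RPA3, its partners in the same trimer, were not called at -0.02 and -0.10. RPA1 read 339, 326 and 320 CPM in LM2 shCtrl and 413, 385 and 361 CPM in LM2 shWDR5. It read 274, 268 and 257 against 307, 328 and 324 CPM in BrM3, and 362, 327 and 339 against 408, 405 and 377 CPM in BoM. No shWDR5 library overlapped the shCtrl libraries of its line. Averaged over the lines RPA1 changed by 0.24 ± 0.04 on the log2 scale (adjusted p = 3.6e-04 by edgeR). FEN1 and LIG1, which trim and join Okazaki fragments, were not called at -0.06 and -0.16.

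In nucleotide supply, RRM1, the large subunit of ribonucleotide reductase, fell, whereas its partner RRM2 was at 0.12 and not called. RRM1 read 496, 410 and 403 CPM in LM2 shCtrl and 392, 379 and 359 CPM in LM2 shWDR5, and 396, 421 and 440 against 367, 341 and 340 CPM in BrM3. In BoM it read 399, 353 and 397 against 332, 374 and 349 CPM, and there the groups overlapped. RRM1 changed on average by -0.20 ± 0.05 on the log2 scale (adjusted p = 0.0064 by edgeR). TYMS and TK1 were not called, at -0.00 and 0.07, and 47.9% of the exon bases of TYMS lie under exons of ENOSF1 and TYMSOS.

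SLBP, which binds the stem-loop of replication-dependent histone mRNAs, had the largest rise of the set. It read 120, 97.8 and 103 CPM in LM2 shCtrl and 142, 135 and 132 CPM in LM2 shWDR5. It read 86.4, 92.2 and 94.3 against 119, 110 and 107 CPM in BrM3, and 123, 120 and 138 against 139, 166 and 204 CPM in BoM, without overlap in any line and with the widest spread in BoM shWDR5. The mean change was 0.36 ± 0.07 on the log2 scale, 1.28-fold (adjusted p = 5.3e-04 by edgeR). CHAF1B, the middle subunit of the histone chaperone CAF-1, fell by 0.14 on the log2 scale (SE 0.05, adjusted p = 0.036 by edgeR). It read 52.7, 51.9 and 52.0 against 50.8, 49.5 and 45.4 CPM in LM2, 31.1, 33.6 and 31.3 against 27.3, 30.9 and 34.5 CPM in BrM3, and 40.9, 38.8 and 40.3 against 31.5, 33.6 and 33.7 CPM in BoM, with overlap in BrM3 only. The partner CHAF1A was at -0.09, ASF1B at 0.11 and UHRF1, which keeps DNA methylation through replication, at 0.10, none of them called.

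**Figure D3:**
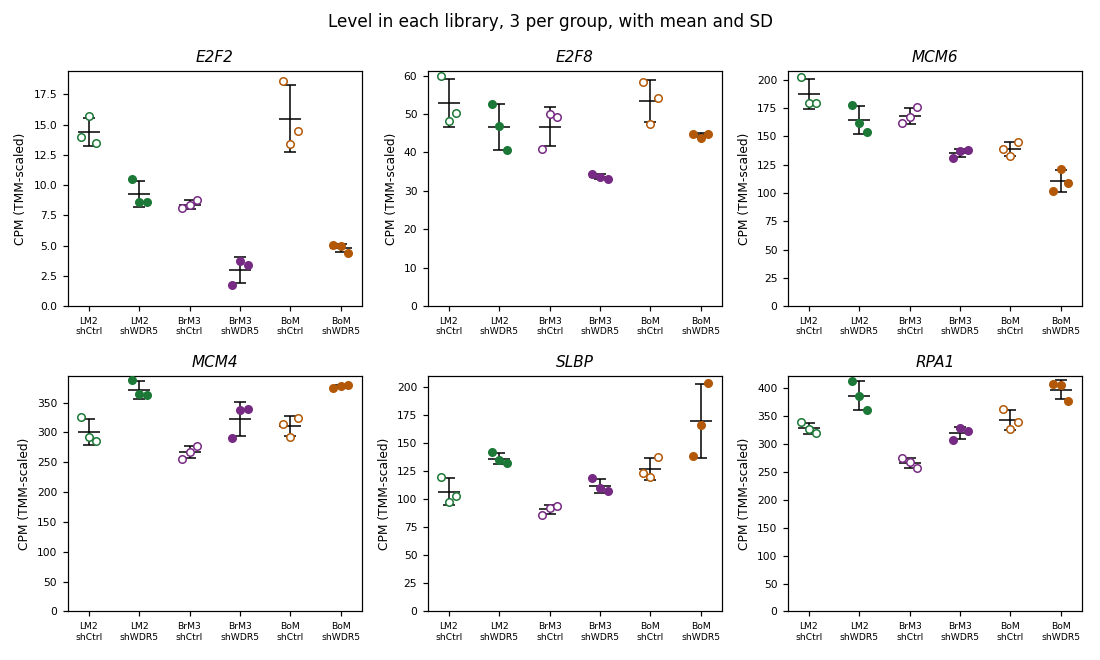
TMM-scaled CPM of E2F2, E2F8, MCM6, MCM4, SLBP and RPA1 in each library (open points shCtrl, filled points shWDR5), with the mean and SD of 3 libraries. E2F2 lies between 13.4 and 18.6 CPM in BoM shCtrl and between 4.39 and 5.02 CPM in BoM shWDR5, and the 2 groups of MCM6 and of MCM4 separate in opposite directions in each line.

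The calls for E2F2, E2F8, MCM6, MCM4, SLBP, RPA1, RFC2, RRM1 and GINS3 were kept in each of 18 fits that left out 1 library, and CHAF1B was called in 8 of the 18. CHAF1B was lost without LM2 shCtrl 2 or 3, LM2 shWDR5 2 or 3, BrM3 shCtrl 2, BrM3 shWDR5 1 or 2, BoM shCtrl 1 or 3, or BoM shWDR5 1, with adjusted p from 0.051 to 0.077 by edgeR. The number that rose was 7 with DESeq2, 7 with filterByExpr and 10 with a correction for GC content, in place of 4. Among all tested genes, 2394 of 12160 rose with DESeq2 and 2564 with the GC correction, in place of 1901. With filterByExpr 2631 of 18428 rose. The number of members that fell was 10 with the GC correction and 3 with no filter, in place of 6. Among all tested genes, 3100 fell with the GC correction and 3391 of 41236 with no filter, in place of 2417. The number of members that rose went to 8 without BrM3 shWDR5 1 and 7 without BoM shWDR5 1. CHAF1B was also not called with RLE factors, GINS3 and CHAF1B were not called with edgeR's filterByExpr filter, and RFC2, RRM1, GINS3 and CHAF1B were not called with no filter.

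Line by line, the test had fewer libraries and called fewer genes. In LM2, MCM4 rose by 0.30 ± 0.08 on the log2 scale (adjusted p = 0.033 by edgeR) and E2F2 fell by 0.64 (SE 0.18, adjusted p = 0.039 by edgeR). These are 2 of 50 genes, against 6.29% of all tested genes called, 1.49% higher and 4.80% lower. In BrM3, MCM4 and RPA1 rose and E2F2, E2F8 and MCM6 fell, 5 of 50 against 10.9% of all tested genes, 2.92% higher and 7.96% lower. In BoM, MCM4 and SLBP rose and E2F2, MCM6 and CHAF1B fell, 5 of 50 against 16.2%, with 5.41% higher and 10.8% lower. MCM4 and E2F2 were thus called in all 3 lines, and 43 genes were called in none of them. The shares of all tested genes called in all 3 lines or in none were not counted, so these numbers lack a background. The log2 fold changes in BrM3 were 0.27 for MCM4, 0.26 for RPA1, -0.31 for MCM6, -0.47 for E2F8 and -1.45 for E2F2, and in BoM they were 0.28 for MCM4, 0.42 for SLBP, -0.33 for MCM6, -0.28 for CHAF1B and -1.69 for E2F2. The 50 genes had medians of 0.03, -0.00 and 0.04 in LM2, BrM3 and BoM, against -0.00, -0.00 and 0.02 for all tested genes. With each line fitted on its own 6 libraries, LM2 had no call and BoM only E2F2, while BrM3 had rises of RFC2, RPA1 and SLBP and falls of MCM6, E2F2 and E2F8. By sign alone, 21 genes were positive and 16 negative in all 3 lines. The signs of all tested genes were not counted, so these numbers have no background to compare with.

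Of these 12 single-line calls, E2F2 in BrM3 and in BoM were kept in all 18 fits that left out 1 library, with adjusted p of at most 0.0013 and 1.6e-04 by edgeR. In LM2, MCM4 was lost without any of shCtrl 2 or 3 or shWDR5 1 to 3 of that line (adjusted p up to 0.14), and E2F2 was lost without any of its 6 LM2 libraries, any BrM3 shCtrl library or BoM shWDR5 2 (up to 0.15). In BrM3, MCM4 was lost without LM2 shWDR5 2, any BrM3 shCtrl library or BrM3 shWDR5 2 or 3 (up to 0.15), RPA1 without any BrM3 shCtrl library or shWDR5 2 or 3 (up to 0.12), MCM6 without shCtrl 2 or 3 or any shWDR5 library (up to 0.11), and E2F8 without shCtrl 2 or 3 or shWDR5 3 (up to 0.066). In BoM, MCM4 was lost without shCtrl 2 or shWDR5 2 or 3 (up to 0.11), SLBP without shCtrl 1 or 2 or shWDR5 3 (up to 0.11) and MCM6 without shCtrl 3 (0.052). CHAF1B in BoM was lost without any BoM library, BrM3 shCtrl 1 or 3, BrM3 shWDR5 2 or LM2 shWDR5 2 (up to 0.096).

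Whether the response differed between lines was tested as a difference of fold changes. By edgeR, 0 of the 50 genes were called for any of the 3 pairs of lines, against 0.00822% of all tested genes for BrM3 minus LM2, 0 for BoM minus LM2 and 0.00822% for BoM minus BrM3. At an unadjusted p under 0.05 there was 1 gene for BrM3 minus LM2, 1 for BoM minus LM2 and 0 for BoM minus BrM3, and in both cases the gene was E2F2. The share of all tested genes at that unadjusted threshold was not counted, so these numbers have no background to compare with. The log2 fold change of E2F2 was lower in BrM3 than in LM2 by 0.81 (95% interval of the difference from -1.37 to -0.25) and lower in BoM than in LM2 by 1.06 (from -1.61 to -0.50), with an adjusted p of 1.0 and 0.18 by edgeR. DESeq2 called E2F2, and no other member, for BoM minus LM2, and called 0 members for the other 2 pairs. Among all 12160 tested genes, DESeq2 called 3 higher and 37 lower for BoM minus LM2. It called 4 higher and 14 lower for BrM3 minus LM2, and 0 higher and 4 lower for BoM minus BrM3. Over the 50 genes the median difference was -0.04, -0.01 and 0.02 on the log2 scale for the 3 pairs. For single genes, the SE of the difference ran from 0.10 to 0.51.

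The control libraries give the level of the machinery in each line without knockdown. Per kilobase of exon, which allows genes to be compared, the most abundant mRNAs over the 9 shCtrl libraries were PCNA at 211, FEN1 at 153 and MCM3 at 150 CPM per kilobase. TK1 followed at 108, RRM1 at 97.5 and MCM7 at 94.8. The least abundant were POLA2 at 0.434, E2F2 at 2.34 and POLA1 at 3.72 CPM per kilobase. Within the MCM2-7 ring the levels ran from 18.3 for MCM5 and 21.0 for MCM2 through 29.7 for MCM4, 39.9 for MCM6 and 94.8 for MCM7 to 150 for MCM3. Exon length was taken as the union of annotated exons, which understates genes with rarely used exons.

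BrM3 had the lowest control level of most replication genes. Its mean was the lowest of the 3 lines for 29 genes and the highest for 1, whereas BoM was highest for 29 and LM2 for 20. The ranks of all tested genes were not counted, so these numbers have no background to compare with. Some of these ranks rest on rounding or on small differences. ORC1, the 1 gene highest in BrM3, was at 53.0 CPM in both BrM3 and BoM, and MCM5 was at 120 CPM in both. CDC45 was at 83.8 CPM in LM2 and 83.9 CPM in BoM, and POLD1 at 39.8 CPM in BrM3 and 40.0 CPM in BoM. The CPM summed over the 50 genes was 6653 to 6792 in LM2 shCtrl, 5638 to 6242 in BrM3 shCtrl and 7100 to 7218 in BoM shCtrl, with no overlap between lines. The line and the passages at which its cells were harvested cannot be told apart.

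In BrM3 against LM2, 19 of the 50 genes were lower and 3 higher, or 22 in all, against 47.6% of all tested genes called, 24.2% higher and 23.4% lower. The median log2 difference of the 50 genes was -0.21, against 0.01 for all tested genes. By role, the lower genes were 4 of 5 chromatin genes, 4 of 5 genes of RPA and Okazaki fragments, 4 of 9 polymerase and primase genes, 2 of 6 MCM subunits, 2 of 7 genes of helicase activation, 1 of 3 E2F factors, 1 of 6 clamp and loader genes, 1 of 5 genes of licensing and its inhibitor, and 0 of 4 genes of nucleotide supply. The largest differences were UHRF1 at -0.88 ± 0.18, E2F2 at -0.78 ± 0.18, CHAF1B at -0.71 ± 0.09 and CHAF1A at -0.65 ± 0.11 on the log2 scale (adjusted p of at most 0.0015 by edgeR). The 3 that were higher were GMNN at 0.60 ± 0.14, RFC5, a loader subunit, at 0.59 ± 0.08 and RRM2 at 0.43 ± 0.12.

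In BoM against LM2, 15 genes were higher and 9 lower, 24 in all, against 51.8% of all tested genes (26.0% higher and 25.8% lower), with a median of 0.05 against -0.01. The clamp and its loader were mostly higher, 5 of 6 genes, and the chromatin genes were lower, 4 of 5. GMNN was higher by 0.94 ± 0.15, RRM2 by 0.85 ± 0.12, RFC5 by 0.75 ± 0.08 and CDC6 by 0.69 ± 0.10 on the log2 scale. UHRF1 was at -1.17 ± 0.18, POLD3, a subunit of polymerase delta, at -0.79 ± 0.08 and MCM2 at -0.76 ± 0.19. For MCM2, 23.6% of the exon bases lie under exons of another gene. MCM6 was at -0.43 ± 0.08 while MCM3, MCM4 and MCM7 were not called. UHRF1 and GMNN are given by library because of their values in these comparisons. The UHRF1 libraries read 114, 178 and 189 CPM in LM2 shCtrl, 69.4, 109 and 83.6 CPM in BrM3 shCtrl and 80.7, 76.0 and 56.3 CPM in BoM shCtrl, so LM2 stood above the others in every library. Within LM2 shCtrl the shallowest library read lowest and the deepest highest. Of the 50-base stretches in UHRF1 transcripts, 21.4% also occur in transcripts of other genes. The GMNN libraries read 84.3, 68.0 and 80.3 CPM, 113, 117 and 123 CPM, and 129, 159 and 157 CPM in the same order of lines, without overlap.

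In BoM against BrM3, 23 genes were higher and 2 lower, 25 of the 50, against 37.6% of all tested genes called, 17.8% higher and 19.8% lower. The median log2 difference was 0.27 against -0.00. E2F2 was higher by 0.89 ± 0.18, GINS2 by 0.87 ± 0.14, RPA2 by 0.69 ± 0.10 and RPA3 by 0.68 ± 0.17, and POLD3 at -0.48 ± 0.08 and MCM6 at -0.28 ± 0.08 were the 2 that were lower. The 3 comparisons share their shCtrl libraries and are not independent of each other. A list of 29 tested G2/M genes had 3 higher and 11 lower in BrM3 against LM2, 8 and 3 in BoM against LM2, and 11 and 1 in BoM against BrM3, and its part in the replication gene values was not tested. Leaving out 1 library, the calls kept in all 18 fits were 17 of 22, 17 of 24 and 18 of 25 in the 3 comparisons, and every gene named with a called value for these comparisons was among the kept ones except MCM6 in BoM against BrM3, lost without BrM3 shCtrl 3 (adjusted p = 0.070 by edgeR) or BoM shCtrl 2 (0.059).

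**Figure D4:**
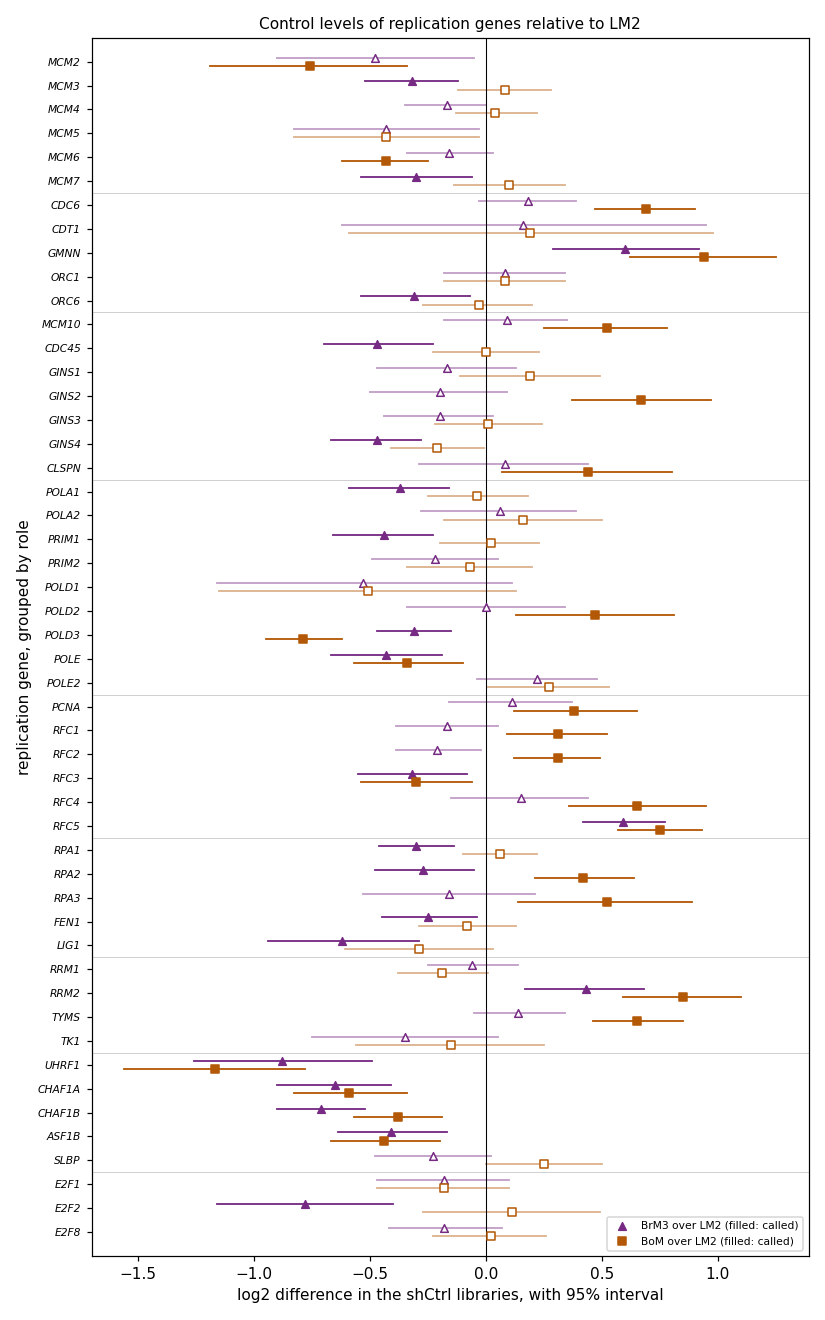
Log2 difference of the 50 genes in the shCtrl libraries of BrM3 (triangles) and BoM (squares) over LM2, with 95% intervals and filled symbols for called genes. UHRF1 lies at -0.88 and -1.17, and GMNN at 0.60 and 0.94.

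**Figure D5:**
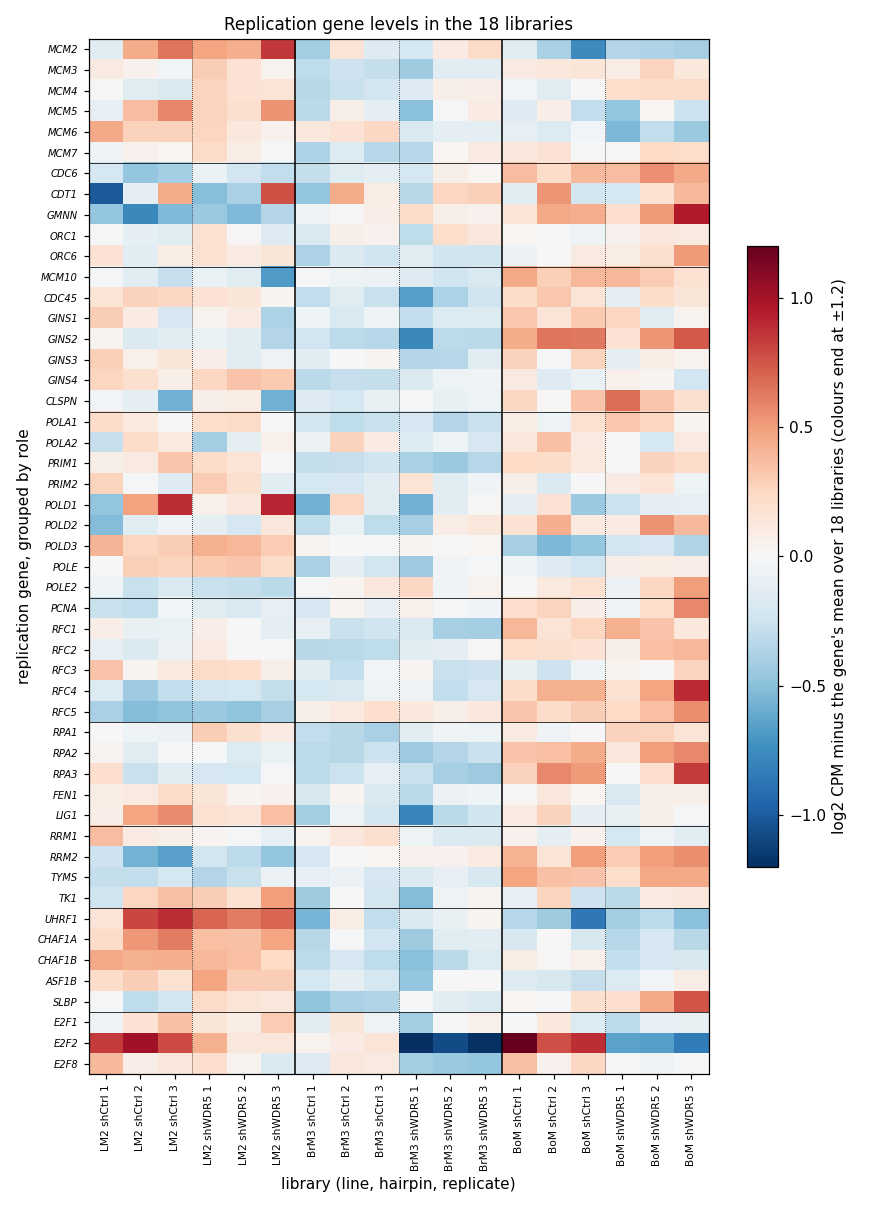
Level of the 50 genes (rows, grouped by role) in the 18 libraries (columns), as log2 CPM minus the mean of the gene over all libraries. E2F2 is darkest blue in the BrM3 shWDR5 libraries, where it reads 1.77 to 3.72 CPM, and UHRF1 is red in the LM2 libraries, where it reads 114 to 189 CPM in shCtrl.

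Spread between replicates was not the same for all genes, and the genes named for it were picked after their values were seen. MCM2 ranged from 92.3 to 157 CPM within LM2 shCtrl, POLD1 from 31.1 to 79.4 CPM and CDT1 from 13.2 to 36.3 CPM, and in all 3 cases the shallowest of the 3 libraries (25472903 counts) read lowest and the deepest (119667013 counts) read highest. The BrM3 shWDR5 libraries showed the same order. In LM2 shWDR5, however, the shallowest library (18108832 counts) read highest for all 3 genes, at 181, 80.9 and 45.2 CPM. In BrM3 shCtrl the deepest library (47146239 counts) read lowest, at 75.6, 28.8 and 19.2 CPM, and the BoM groups were mixed. The part of depth in these values was not tested. MCM4 ranged from 286 to 326 CPM and CHAF1B from 51.9 to 52.7 CPM in the same libraries. The SE of the averaged log2 fold change ran from 0.04 to 0.21 with a median of 0.07.

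Other genes of the same pathway give the setting. Of 52 further replication genes tested, 12 rose and 5 fell in the mean of the 3 lines, with a median log2 fold change of 0.07. The largest rises were POLE4 (0.45), a small subunit of polymerase epsilon, the histone chaperone ASF1A (0.42) and TIPIN (0.34), which stabilizes forks. The largest falls were POLD4 (-0.69), the small subunit of polymerase delta, RMI2 (-0.48), a part of the BLM complex, and DSCC1 (-0.24), a part of an alternative clamp loader. POLD4 is weakly expressed, at 1.15 to 4.85 CPM over the libraries. Of 23 tested E2F, RB and S phase cyclin genes, 4 rose and 4 fell, with a median of 0.09. The repressors E2F6 and E2F7 rose by 0.36 and 0.26 and LIN54, a DNA-binding part of the MuvB complex, by 0.29. MYBL2, which works with MuvB, was at -0.58, the pocket protein RBL2 at -0.45 and the CDK inhibitor CDKN1A at -0.38. Of 29 tested G2/M genes, 6 rose and 0 fell by edgeR, with a median of 0.07 and PTTG1 (0.31), HMMR (0.27) and CDC20 (0.25) at the top. The share called was 35.5% among all tested genes, and no test was made of any of these lists.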

How the data were processed

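RNA was sequenced from 18 libraries, 3 for each of 2 hairpins in 3 lines. Per the labels and the Methods, the authors built paired-end libraries from stranded mRNA preparations, demultiplexed with CASAVA 1.8.2, aligned to hg38 with STAR 2.7.0 and deposited raw counts per gene, with no normalization. The strand setting of the counts is not given in the sources used here, so genes that overlap on opposite strands are uncertain. A second deposited table holds the authors' own DESeq2 comparisons and was not used. The table holds 0 spike-in rows and 0 per-sample columns were left unused. Libraries were grouped by their titles. The cell line label names BrM2 where the paper names BrM3, the source name label disagrees with the title for most libraries and was not used, and the column code ad was read as shCtrl because it is the only other hairpin.

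One model of 6 groups with 12 residual degrees of freedom was fitted in edgeR 4.0.16 (R 4.3.3) with TMM scaling and the two-sided quasi-likelihood F test. Genes with a Benjamini-Hochberg adjusted p under 0.05 over 12160 tested genes were called. These genes were kept by the Jaccard criterion of HTSFilter, recomputed over 100 thresholds from 1 to 200, which gave a minimum highest normalized count of 140 (mean index 0.970). Intervals are 95% and use the SE of the fit. Replicates of a group differed by more than counting noise (chi-square per gene from 4.17 to 68.6 in 18 pairs), so all were counted separately. Same-numbered libraries were taken as paired in BoM, where the correlations of their deviations were 0.559, 0.321 and 0.145, but not in LM2 or BrM3, where at least 1 was under 0.1. The model held no term for pairs in any line, so the reported BoM values do not use the pairing. The fits were checked on simulated counts.

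Gene positions and exon lengths are those of GENCODE release 44 on GRCh38, and promoters are those of RefSeq on GRCh38.p14, which held 43 of the 50 genes. The annotation used for counting is named by the Methods in a form that does not match this release. The 50 genes and the further lists were chosen with earlier results of these data known. Any of the 50 could be named. Values in every library were given for WDR5 and for the called members of the averaged comparison, up to 6 in each direction, and at most 3 called genes in each direction were named from each further list. Library values of other members in the report were picked after they were seen. Alternatives were edgeR with median-of-ratios (RLE) factors, DESeq2 1.42.0, edgeR's filterByExpr, no filter, the replicate block, a loess correction for GC content (span 0.5, GC content known for 99.8% of tested genes) with and without the block, a fit of the compared groups alone, and leaving out each library.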

Additional observations from a re-analysis of the deposited data

How the results depend on the processing

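No called member changed sign under any of the alternatives run, and in 190 cases over all comparisons a called member kept its sign but missed the threshold. Of the 4 that rose and 6 that fell in the mean of the 3 lines, the counts were 7 and 6 with DESeq2, 7 and 4 with filterByExpr, 3 and 3 with no filter, 10 and 10 with the GC correction, and 15 and 11 with the GC correction and replicate block. Among all tested genes, 2394 rose and 2409 fell with DESeq2, and 2564 and 3100 with the GC correction. With filterByExpr 2631 and 3243 of 18428 did, and with no filter 2285 and 3391 of 41236. The cause of these differences was not tested. In LM2, where 1 rose and 1 fell, 3 rose with DESeq2, 0 fell with filterByExpr, 0 rose with no filter, 3 and 2 were called with the GC correction, 6 and 3 with the GC correction and block, and 0 and 0 when LM2 was fitted alone. Among all tested genes in LM2, 410 rose and 737 fell with DESeq2, and 652 and 1219 with the GC correction. With filterByExpr 224 and 638 of 18428 did, and with no filter 259 and 704 of 41236. In BrM3, where 2 rose and 3 fell, 0 rose with no filter, 5 rose with the GC correction, and 7 rose and 6 fell with the GC correction and block. Among all tested genes in BrM3, 915 rose and 1728 fell with the GC correction, and 408 and 1107 of 41236 with no filter. In BoM, where 2 rose and 3 fell, 4 rose with DESeq2, 1 and 1 were called with no filter, 6 and 5 with the GC correction, 9 and 5 with the GC correction and block, and 0 and 1 when BoM was fitted alone. Among all tested genes in BoM, 1074 rose and 1399 fell with DESeq2, and 1274 and 1856 with the GC correction. With no filter 731 and 1602 of 41236 did. For the difference of the response in BoM and LM2, 1 member (E2F2) was called with DESeq2, with no filter and with the GC correction and block, against 0. Among all tested genes, 3 were higher and 37 lower with DESeq2, and 9 and 81 with the GC correction and block. With no filter, 5 were higher and 22 lower of 41236. The main fit called 0 in either direction. In shCtrl BrM3 against LM2, 37 were called with the GC correction and block, against 22. Of all 12160 tested genes, 4205 were higher and 4008 lower with that correction and block, against 2941 and 2847.

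With the replicate block and no other change, 8 rose and 11 fell in the mean of the lines and 2 rose in LM2. Among all tested genes, 2701 rose and 3012 fell in the mean of the lines and 468 rose in LM2. The numbers were taken as pairs in BoM only, where the block changed no call of a member. The block was fitted for every line at once, and a block on BoM alone was not fitted. In each of the 3 lines at least 1 library correlated best with a library of another number.

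Leaving out 1 library gave 0 to 2 rises and 0 to 1 falls in LM2, 0 to 4 and 1 to 4 in BrM3, 0 to 3 and 1 to 3 in BoM, and 4 to 8 and 5 to 7 in the mean of the lines. It gave 0 to 0 differences between lines, and 17 to 25, 20 to 27 and 20 to 28 members in shCtrl BrM3 against LM2, BoM against LM2 and BoM against BrM3. Among all called genes in LM2, the share that rose was 23.7%, and 35.7% with DESeq2, 34.8% with the GC correction and 43.8% with the GC correction and block. In BrM3 it was 26.8%, 37.1% when fitted alone and 40.1% with the GC correction and block, and in BoM 33.5%, 46.7% with the GC correction and block and 21.6% when fitted alone. Over all genes in the mean of the lines, 1901 rose and 2417 fell, against 3279 and 3567 with the GC correction and block. In LM2 181 rose and 584 fell, against 1384 and 1779 with that correction and block and 67 and 225 when fitted alone, in BrM3 355 and 968 against 1559 and 2327 with the correction and block, and in BoM 658 and 1309 against 2061 and 2355, and 197 and 716 when fitted alone. RLE factors gave member counts within 1.5 times of those reported. Counts were low for POLA2, at 75 to 641 reads, and for E2F2, at 31 to 1654 reads.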
